A study of Homo sapiens with 12 samples.

Results

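SRRM4 and REST sit at the centre of a switch that sets neuronal gene expression and neuronal splicing, and mRNA of these and related regulators was followed in derivatives of CWR22Rv1 (labelled CWR-22Rv1), a long-established line of human prostate cancer cells. The 10 genes SRRM4, SRRM3, REST, RCOR1, RCOR2, RCOR3, PTBP1, PTBP2, RBFOX2 and CELF3 were chosen by name, with their values in all groups already known, and all 10 are among the 13951 genes analysed. Their levels and differences are therefore given as a description, without p-values. Whether a gene passed the test run over all 13951 genes is stated beside each difference.

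The 12 libraries fall into 4 groups of 3, and they were made to ask how far MEIS1, a homeodomain transcription factor, acts through its partner HOXB13. Control cells carried exogenous Cas9 and no guide RNA. LV-MEIS1 cells were infected with a lentivirus that expresses MEIS1, and the sources used here do not say whether they also carried Cas9. HOXB13ko cells carried Cas9 integrated by a transposon under an EF1a promoter and were transfected with a guide against HOXB13, and 6 knockout clones were recombined into a single pool. HOXB13ko-LV-MEIS1 cells are that pool infected with the same lentivirus. All groups were grown in RPMI medium with 10% FBS and puromycin and were harvested after 48 h. The 3 replicates of a group are cultures of 1 derived line or pool, so the spread between them is the spread of cultures and not of independently derived lines.

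MEIS1 mRNA was between 4.05 and 4.45 CPM (counts scaled to library size, as deposited) in Control and between 45.8 and 49.6 CPM in LV-MEIS1. It was between 3.42 and 3.65 CPM in HOXB13ko and between 29.3 and 30.1 CPM in HOXB13ko-LV-MEIS1, so MEIS1 mRNA with the lentivirus was lower in the pool. HOXB13 mRNA was higher in the libraries labelled HOXB13ko (307 to 347 CPM) than in Control (185 to 215 CPM), so the mRNA does not check that label. Per the study's methods, each knockout clone was checked for HOXB13 protein by western blot. Among cell type markers, 9 of 9 luminal prostate genes were listed and summed to between 2848 and 2973 CPM in Control but to between 1991 and 2039 CPM in LV-MEIS1. None of the 3 basal, 2 leukocyte and 2 endothelial markers was listed. The 2 listed fibroblast markers of 4 summed to between 14.6 and 17.9 CPM in Control and to between 30.2 and 34.9 CPM in LV-MEIS1, and they went opposite ways, COL1A1 with a log2 fold change of 1.15 ± 0.08 and PDGFRB with -1.28 ± 0.21. The part of these marker shifts in the results that follow was not tested.

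As background, REST is a zinc finger repressor that binds a long DNA element (RE1) near neuronal genes and keeps them silent outside neurons. It recruits CoREST proteins, encoded by RCOR1, RCOR2 and RCOR3, together with the histone demethylase KDM1A and histone deacetylases. SRRM4 (also called nSR100) promotes the inclusion of short neuronal exons, among them an exon of REST that leads to a shortened and weaker repressor, while REST in turn represses SRRM4. SRRM3 is a related splicing factor, PTBP1 and PTBP2 are repressors of neuronal exons, RBFOX2 binds intronic sites to steer exon choice, and CELF3 is an RNA-binding protein of neurons. In prostate cancer, raised SRRM4 and reduced REST activity are known from tumours with neuroendocrine features.

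The reference sequence just upstream of these genes is shown first, because the binding factors of the design and REST itself recognise short DNA words. RefSeq promoter windows on GRCh38.p14, each running from 250 bases before to 50 bases after a transcription start, were given for 8 of the 10 genes (11 windows). Each window was searched on both strands for TGACAG (the core word of MEIS proteins), CAATAAA (a word bound by HOXB13), and the left and right parts of RE1, TTCAGCACC and GGACAGC. The windows of SRRM4 (chr12:118981291-118981590, plus strand), SRRM3 (chr7:76201646-76201945, plus strand), the second REST window (chr4:56908660-56908959, plus strand) and CELF3 (chr1:151716754-151717053, minus strand) are printed 5′ to 3′ with matches in capitals, the first 3 because they hold a match and CELF3 because its mRNA was lower in several groups.
SRRM4: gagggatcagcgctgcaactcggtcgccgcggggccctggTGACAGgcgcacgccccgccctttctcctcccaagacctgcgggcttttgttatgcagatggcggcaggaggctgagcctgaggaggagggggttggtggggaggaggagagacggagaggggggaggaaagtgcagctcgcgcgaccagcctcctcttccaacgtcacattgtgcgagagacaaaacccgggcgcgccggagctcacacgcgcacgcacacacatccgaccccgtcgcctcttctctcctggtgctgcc
SRRM3: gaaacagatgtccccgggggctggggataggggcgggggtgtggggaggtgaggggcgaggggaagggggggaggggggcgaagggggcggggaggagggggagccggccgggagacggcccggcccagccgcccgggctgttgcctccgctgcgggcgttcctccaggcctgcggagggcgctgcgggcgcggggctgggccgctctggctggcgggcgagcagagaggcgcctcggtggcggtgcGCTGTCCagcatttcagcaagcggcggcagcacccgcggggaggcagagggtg
REST: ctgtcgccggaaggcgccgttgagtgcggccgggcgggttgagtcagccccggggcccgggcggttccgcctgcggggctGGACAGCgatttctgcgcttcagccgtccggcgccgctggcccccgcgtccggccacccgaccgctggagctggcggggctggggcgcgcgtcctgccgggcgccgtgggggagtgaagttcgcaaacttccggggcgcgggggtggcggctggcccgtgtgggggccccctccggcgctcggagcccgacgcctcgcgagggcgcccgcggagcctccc
CELF3: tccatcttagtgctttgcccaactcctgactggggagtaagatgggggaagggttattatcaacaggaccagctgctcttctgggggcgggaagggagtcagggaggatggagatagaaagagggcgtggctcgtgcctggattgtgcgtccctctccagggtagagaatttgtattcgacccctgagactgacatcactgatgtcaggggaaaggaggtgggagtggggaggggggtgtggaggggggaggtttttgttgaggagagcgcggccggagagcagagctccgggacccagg
The SRRM4 window is the only 1 of the 11 that holds TGACAG, starting 210 bases before the transcription start, and 15.8% of all 35116 windows hold that word. The SRRM3 window holds the right part of RE1 on the other strand at the start site, and the REST window holds it 170 bases before the start. With the RCOR1 window, 3 of the 11 windows hold it, against 6.03% of all windows. No match to the left part of RE1 (0.376% of all windows) or to CAATAAA (4% of all windows) was present in the 11. A match of letters in a window is a description of the sequence.

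Levels were compared between genes only per length, as CPM per kb of the canonical transcript. In Control, PTBP1 was highest with 156 ± 10.3 CPM per kb (SD, n = 3), followed by SRRM3 with 38.0 ± 2.17. REST (15.3 ± 1.20) and RCOR3 (14.1 ± 1.69) were next and did not differ beyond their spread, and RCOR1 stood at 10.7 ± 0.482. RBFOX2 (6.39 ± 3.42) and PTBP2 (6.26 ± 0.305) could not be ordered. SRRM4 (3.30 ± 0.158), RCOR2 (2.24 ± 0.375) and CELF3 (1.28 ± 0.221) were lowest. In LV-MEIS1 SRRM4 was lowest of the 10 with 0.250 ± 0.0828 CPM per kb, below CELF3 with 0.714 ± 0.0851. The lowest value of any member in any library still rested on about 26.3 reads.

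**Figure D1:**
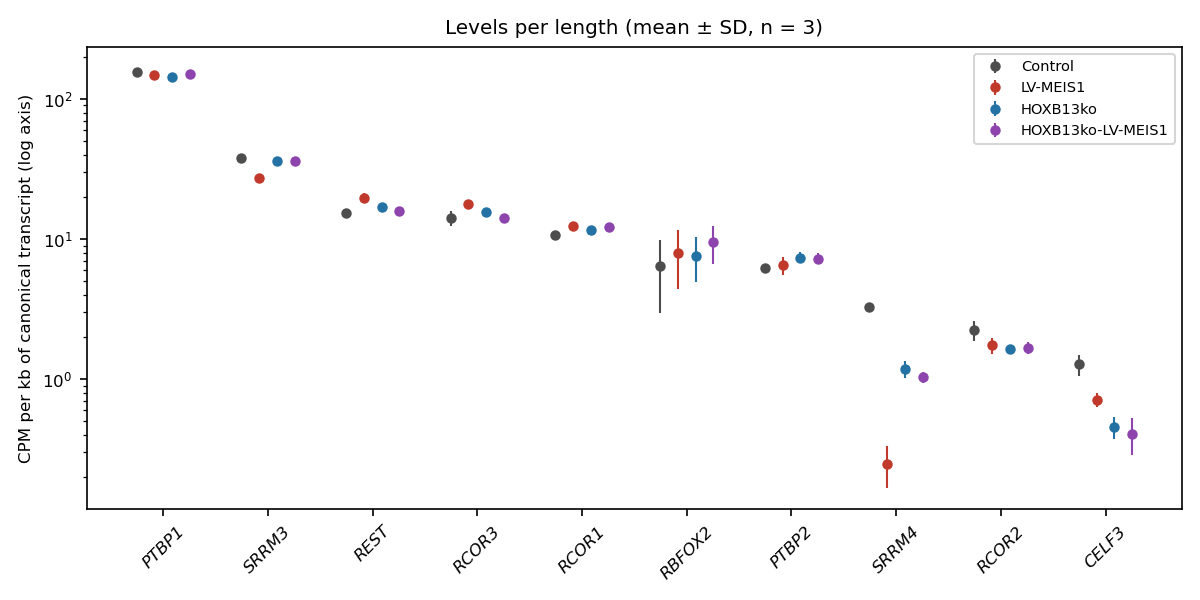
Mean level of the 10 regulators in CPM per kb of canonical transcript (log axis) in the 4 groups, with SD over 3 libraries as bars and genes ordered by Control. PTBP1 is highest in every group near 150 CPM per kb, and SRRM4 spans from 3.30 in Control to 0.250 in LV-MEIS1.

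Differences are log2 fold changes of CPM + 0.5 with their standard error. A gene passed the 1.5-fold test when limma's treat method put its change beyond 1.5-fold at a Benjamini-Hochberg adjusted p under 0.05 over all genes. A gene passed the test against no change when limma's eBayes test did so with no fold minimum. In LV-MEIS1 against Control, 1 of 10 members (SRRM4) passed the 1.5-fold test and 6 passed the test against no change, beside 3.99% and 44.5% of all genes. In HOXB13ko against Control, 2 members (SRRM4 and CELF3) passed the 1.5-fold test and 3 passed the test against no change, beside 1.41% and 32.9% of all genes. In HOXB13ko-LV-MEIS1 against HOXB13ko, 0 members passed either limma test, and 0 had an unadjusted p under 0.05 by either, beside 0.00717% and 0.0502% of all genes. For the difference of the MEIS1 effects (LV-MEIS1 against Control minus HOXB13ko-LV-MEIS1 against HOXB13ko), 1 member (SRRM4) passed the 1.5-fold test and 4 passed the test against no change, beside 2.93% and 34.2% of all genes. The comparisons with Control share the Control libraries, and since the members were picked with these contrasts known, nothing is read from the counts.

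**Figure D2:**
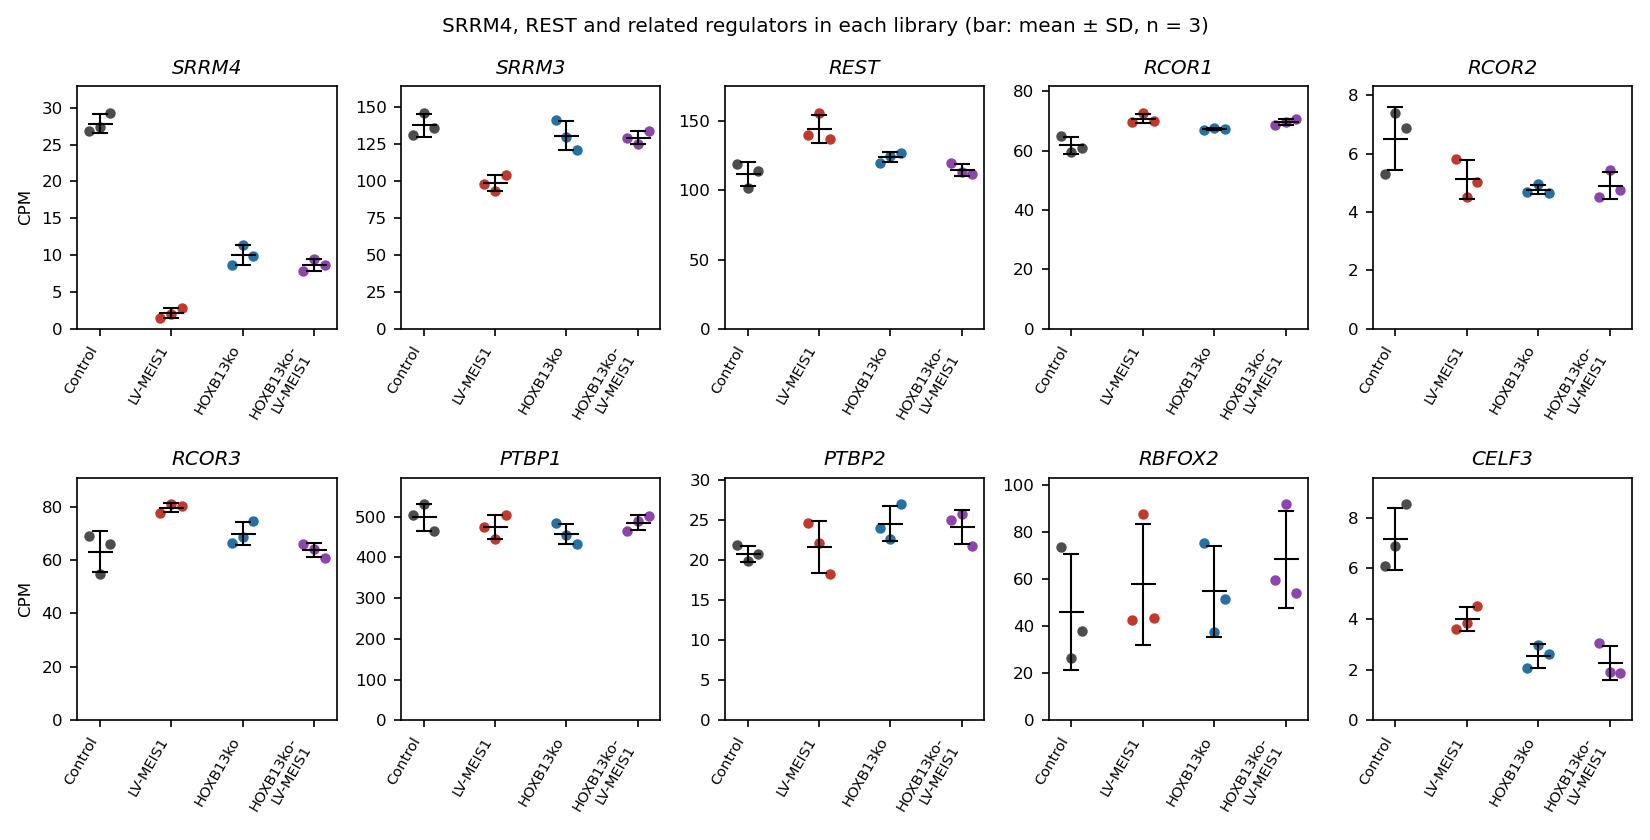
CPM of each of the 10 regulators in the 12 libraries (points) with the mean and SD of each group (bars, n = 3); each panel starts at 0. SRRM4 fills separate ranges in Control (26.8 to 29.3 CPM), LV-MEIS1 (1.45 to 2.84 CPM) and the pool, whereas the wide ranges of RBFOX2 overlap between all groups.

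SRRM4 (ENSG00000139767, GRCh38 chromosome 12, 118981541 to 119163051, plus strand, 13 exons in the canonical transcript) encodes the splicing factor that activates neuronal microexons. It was at 26.8, 27.4 and 29.3 CPM in Control and at 1.45, 2.02 and 2.84 CPM in LV-MEIS1. The HOXB13ko libraries had 8.71, 11.4 and 9.92 CPM, and the HOXB13ko-LV-MEIS1 libraries had 7.84, 9.43 and 8.71 CPM. All LV-MEIS1 libraries lay below every other library, all Control libraries above, and both groups of the pool lay between them and overlapped each other. In LV-MEIS1 against Control SRRM4 fell by 3.48 ± 0.16 on the log2 scale, and the ratio of mean CPM was 13.2-fold. In HOXB13ko against Control it fell by 1.44 ± 0.16, a 2.78-fold lower mean. Adding MEIS1 to the pool gave -0.20 ± 0.16 (95% interval -0.53 to 0.14), which passed neither test. The difference of the MEIS1 effects was -3.28 ± 0.22 (95% interval -3.76 to -2.80), beside the lower exogenous MEIS1 level in the pool given above. Of the genes around SRRM4, the 34 within 2 Mb whose mean reached 5 CPM had a median log2 fold change of -0.09 in LV-MEIS1 against Control. Among these 34 neighbours, 25 were lower. Around PTBP1 and RBFOX2, which passed neither test, 51 of 67 and 21 of 28 were lower, and around SRRM3 and REST 18 of 34 and 5 of 13. The share of all genes that were lower was not computed, so nothing is read from the 25. In bulk RNA, fewer cells that express a gene and less RNA per cell cannot be told apart.

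SRRM3 (ENSG00000177679, chromosome 7, 76201896 to 76287288) encodes a relative of SRRM4 that shares part of its exon programme. It was at 131, 146 and 136 CPM in Control and at 98.2, 93.0 and 104 CPM in LV-MEIS1, groups that did not overlap. It was at 141, 130 and 121 CPM in HOXB13ko and at 129, 125 and 134 CPM in HOXB13ko-LV-MEIS1, which overlapped Control. SRRM3 fell by 0.48 ± 0.06 on the log2 scale in LV-MEIS1 against Control by the test against no change and did not pass the 1.5-fold test. The difference of the MEIS1 effects was -0.47 ± 0.09 and passed the test against no change. Since SRRM4 was lower by far more, the ratio of SRRM3 to SRRM4 per kb was between 10.8 and 12.4 in Control libraries, between 85.3 and 157 in LV-MEIS1, between 26.5 and 37.7 in HOXB13ko and between 30.8 and 38.4 in HOXB13ko-LV-MEIS1. SRRM3 thus was the more abundant of this pair in every library, and the ratio was lowest in Control.

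CELF3 (ENSG00000159409, chromosome 1, 151700058 to 151716803, minus strand), the neuronal RNA-binding protein, was at 6.11, 6.87 and 8.52 CPM in Control and at 3.60, 3.84 and 4.51 CPM in LV-MEIS1. It was at 2.05, 2.97 and 2.60 CPM in HOXB13ko and at 3.04, 1.89 and 1.87 CPM in HOXB13ko-LV-MEIS1. Control was above all other groups, and both groups of the pool were below LV-MEIS1, an order that differs from that of SRRM4, whose lowest group was LV-MEIS1. CELF3 fell by 1.33 ± 0.18 in HOXB13ko against Control (1.5-fold test) and by 0.77 ± 0.18 in LV-MEIS1 against Control (test against no change only). The 1.5-fold call was lost without Control replicate 2 (-1.36), Control replicate 3 (-1.21), HOXB13ko replicate 1 (-1.21) or HOXB13ko replicate 3 (-1.36), while the direction stayed. Exogenous MEIS1 in the pool gave -0.15 ± 0.18, and the difference of the MEIS1 effects, -0.62 ± 0.25, passed neither test, though it passed the test against no change with quantile normalization (-0.74).

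**Figure D3:**
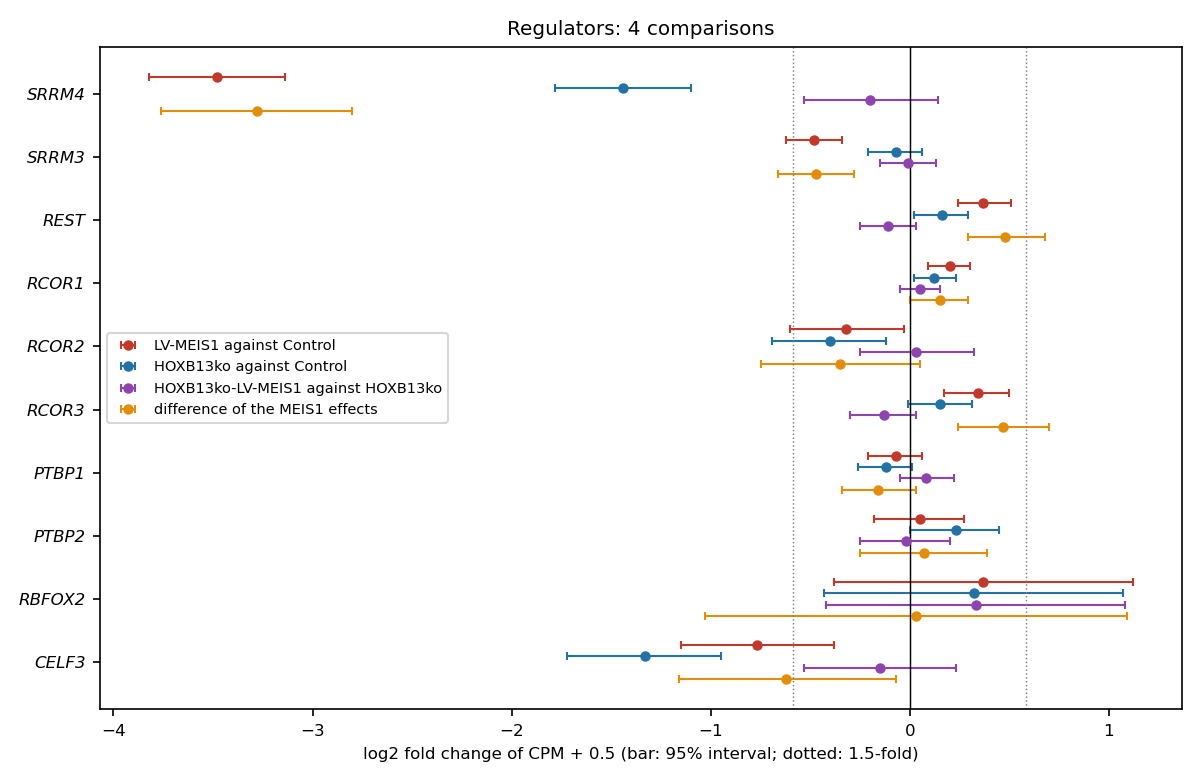
Log2 fold change of CPM + 0.5 for the 10 regulators in the 4 comparisons, with 95% intervals as bars and dotted lines at 1.5-fold. SRRM4 lies at -3.48 and -1.44 against Control, CELF3 at -0.77 and -1.33, and the point values of the other 8 genes lie within 0.5 of 0 on the log2 scale.

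REST (ENSG00000084093, chromosome 4, 56907876 to 56966808) encodes the repressor itself. It was at 119, 102 and 114 CPM in Control and at 140, 156 and 137 CPM in LV-MEIS1, which lay above every other library. The HOXB13ko libraries had 120, 125 and 127 CPM and the HOXB13ko-LV-MEIS1 libraries had 120, 113 and 112 CPM, close to the Control range. REST rose by 0.37 ± 0.06 on the log2 scale (1.29-fold) in LV-MEIS1 against Control by the test against no change and did not pass the 1.5-fold test. In HOXB13ko against Control it was 0.16 ± 0.06, which passed the test against no change only when Control replicate 1 was left out (0.20). In the pool the MEIS1 value was -0.11 ± 0.06, and the difference of the MEIS1 effects was 0.48 ± 0.09 (test against no change). REST and SRRM4 thus moved in opposite directions in LV-MEIS1, by 1.29-fold and 13.2-fold. The values sum all transcripts of a gene, so the neuronal REST exon, which SRRM4 is known to promote, was not measured.

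The CoREST genes encode the scaffolds that tie REST to its enzymes. RCOR1 (ENSG00000089902, chromosome 14) was at 64.9, 59.6 and 60.8 CPM in Control and at 69.8, 72.7 and 70.0 CPM in LV-MEIS1. RCOR3 (ENSG00000117625, chromosome 1) was at 68.9, 54.6 and 66.0 CPM in Control and at 77.6, 80.8 and 80.1 CPM in LV-MEIS1. Neither pair of groups overlapped, and both genes rose in LV-MEIS1 by the test against no change only, RCOR1 by 0.20 ± 0.05 and RCOR3 by 0.34 ± 0.08 on the log2 scale. In the pool RCOR1 ranged from 66.9 to 67.7 CPM without and from 68.7 to 70.7 CPM with MEIS1, and RCOR3 from 66.4 to 74.6 CPM and from 60.8 to 66.1 CPM. The difference of the MEIS1 effects was 0.47 ± 0.11 for RCOR3, which passed the test against no change, and 0.15 ± 0.07 for RCOR1, which passed it only without Control replicate 1 (0.18). Without Control replicate 1, HOXB13ko against Control also passed it for RCOR1 (0.16, with all libraries 0.12 ± 0.05) and RCOR3 (0.22, with all libraries 0.15 ± 0.08).

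RCOR2 (ENSG00000167771, chromosome 11), the CoREST gene of lowest level, was at 5.29, 7.39 and 6.86 CPM in Control, at 5.81, 4.50 and 5.03 CPM in LV-MEIS1, at 4.70, 4.95 and 4.64 CPM in HOXB13ko and at 4.52, 5.42 and 4.75 CPM in HOXB13ko-LV-MEIS1. Control and HOXB13ko were separate, and RCOR2 fell there by 0.40 ± 0.13 by the test against no change. That call was lost without Control replicate 2 (-0.31), Control replicate 3 (-0.36) or HOXB13ko replicate 1 (-0.39), 2 (-0.43) or 3 (-0.39). In LV-MEIS1 against Control RCOR2 was -0.32 ± 0.13, which passed without Control replicate 1 (-0.45), without LV-MEIS1 replicate 1 (-0.40) and with quantile normalization of all libraries (-0.35), and the groups overlapped. The difference of the MEIS1 effects, -0.35 ± 0.19, passed only without Control replicate 1 (-0.48). In HOXB13ko-LV-MEIS1 against HOXB13ko it was 0.03 ± 0.13.

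PTBP1 and PTBP2 encode the polypyrimidine tract proteins that hold back neuronal exons, PTBP1 in most cells and PTBP2 early in neuronal development. PTBP1 (ENSG00000011304, chromosome 19) had 503, 530 and 464 CPM in Control, 475, 445 and 504 CPM in LV-MEIS1, 484, 455 and 434 CPM in HOXB13ko and 466, 489 and 501 CPM in HOXB13ko-LV-MEIS1. PTBP2 (ENSG00000117569, chromosome 1) had 21.8, 19.8 and 20.7 CPM, 24.6, 22.1 and 18.2 CPM, 24.0, 22.6 and 26.9 CPM, and 25.0, 25.7 and 21.7 CPM in the same order of groups. The ranges overlapped for PTBP1 throughout and for PTBP2 in all but HOXB13ko against Control, and neither gene passed either test in any comparison. For LV-MEIS1 against Control the 95% interval was -0.21 to 0.06 for PTBP1 and -0.18 to 0.27 for PTBP2. The ratio of PTBP1 to PTBP2 per kb was 24.9 ± 2.40 in Control, 23.2 ± 4.84 in LV-MEIS1, 19.5 ± 2.42 in HOXB13ko and 21.0 ± 2.58 in HOXB13ko-LV-MEIS1.

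RBFOX2 (ENSG00000100320, chromosome 22, 35738736 to 36028824, minus strand), a splicing factor of epithelial, muscle and neuronal cells, varied most within groups. It was at 73.8, 26.6 and 38.0 CPM in Control and at 42.4, 87.5 and 43.5 CPM in LV-MEIS1. It was at 75.5, 37.4 and 51.6 CPM in HOXB13ko and at 59.4, 91.7 and 53.9 CPM in HOXB13ko-LV-MEIS1. In each group 1 library stood far above the others, and it was replicate 1 in Control and HOXB13ko and replicate 2 in both groups with MEIS1. The SD within groups was 0.57 on the log2 scale, against a median of 0.11 over all genes, and 0.788% of all genes had a larger one. All 4 comparisons passed neither test, and the 95% interval in LV-MEIS1 against Control ran from -0.38 to 1.12, so a change of 1.5-fold was not detectable at this spread.

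The enzymes and partners of the REST complex were described from a list of 19 genes, all of them listed. In the 4 comparisons 0 passed the 1.5-fold test of limma, by adjusted or unadjusted p. The test against no change was passed by 6 in LV-MEIS1, by 4 in HOXB13ko, by 0 with MEIS1 in the pool (4 at an unadjusted p under 0.05) and by 6 for the difference of the MEIS1 effects. These are 31.6%, 21.1%, 0% and 31.6% of the list, beside 44.5%, 32.9%, 0.0502% and 34.2% of all genes. The median log2 fold change in LV-MEIS1 against Control was 0.00 (all genes 0.01), with a range from -0.46 to 0.49. The 2 partners of highest mean CPM, not scaled by length, were SMARCA4, the ATPase of a chromatin remodeller, and HMG20B, a CoREST complex subunit. SMARCA4 was at 369, 412 and 391 CPM in Control and at 292, 297 and 322 CPM in LV-MEIS1, a fall by 0.36 ± 0.06 (test against no change), and HMG20B was 0.01 ± 0.07. KDM1A, the demethylase of the complex, was at 105, 110 and 104 CPM in Control and at 95.8, 100 and 103 CPM in LV-MEIS1, and passed no test; it was named after its values were seen.

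Also named after their values were seen, the extremes of the list in LV-MEIS1 against Control were CTDSP2, a small phosphatase that acts with REST, which rose by 0.49 ± 0.06, and the corepressor SIN3A, which fell by 0.46 ± 0.06, both by the test against no change. SIN3A was at 95.2, 97.3 and 93.1 CPM in Control and at 68.5, 67.2 and 72.0 CPM in LV-MEIS1. SIN3A lies on chromosome 15 (75369379 to 75455842), where 31 of 36 neighbours within 2 Mb (mean of 5 CPM or more) were also lower, with a median of -0.37. The share of all genes that were lower was not computed, and their median was 0.01.

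Neuronal genes known as REST targets were described from a list of 40 genes, written from general knowledge, of which 26 were listed; the other 14 were not analysed here. In LV-MEIS1 against Control 14 of 26 fell by the 1.5-fold test and 0 rose, beside 2.24% of all genes that fell. In HOXB13ko against Control 10 fell and 0 rose, beside 0.760% of all genes that fell. With MEIS1 in the pool 0 passed the 1.5-fold test of limma, by adjusted or unadjusted p, and 1, SYT4, passed the test against no change. The difference of the MEIS1 effects was negative past the 1.5-fold test in 12 of 26, beside 1.62% of all genes. The median log2 fold changes were -1.08, -0.67, -0.03 and -1.20 in the same order, where the medians of all genes were 0.01, 0.00, 0.01 and 0.02. The list was written with earlier results of these data known, and SYP, CHGB and SCG3 are also neuroendocrine markers.

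**Figure D4:**
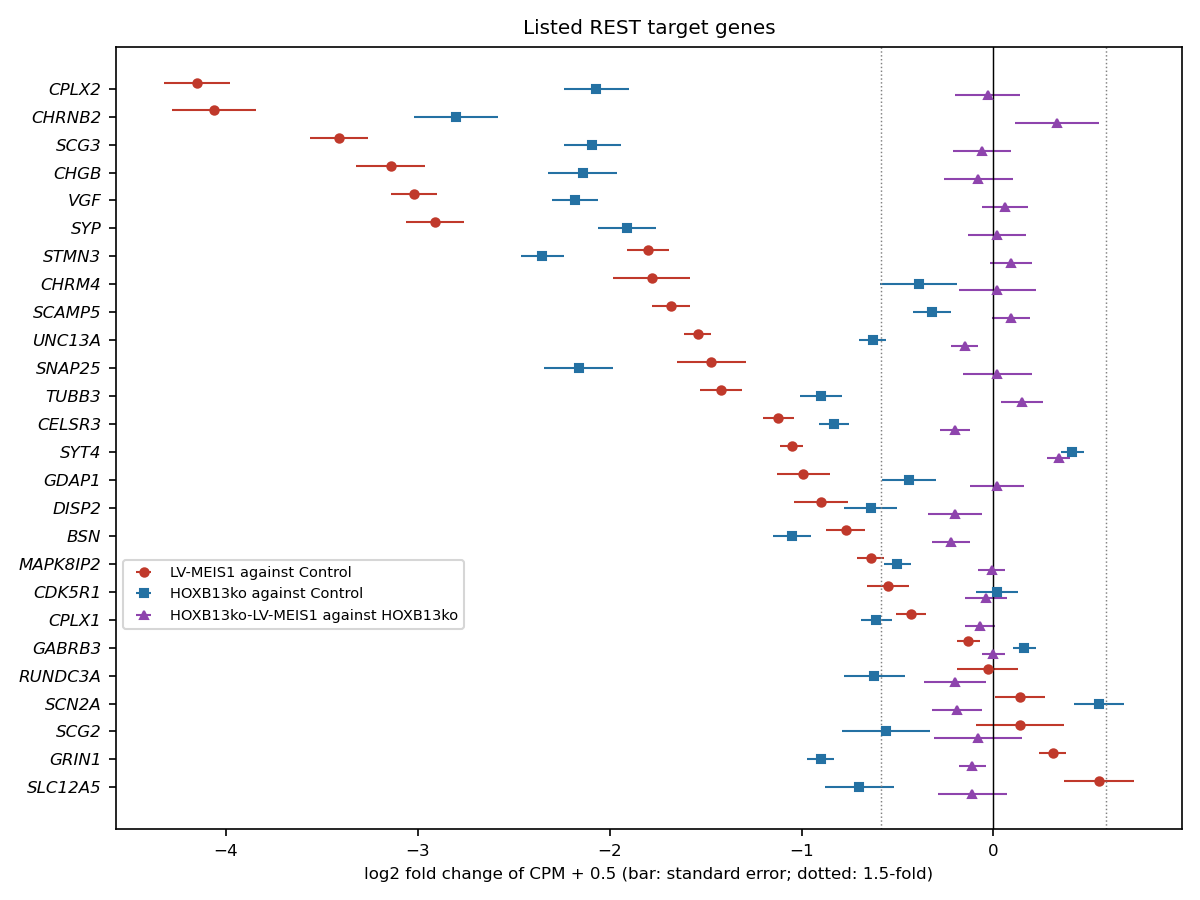
Log2 fold change of CPM + 0.5 with standard error for the 26 listed REST target genes, ordered by LV-MEIS1 against Control (circles), with HOXB13ko against Control (squares) and HOXB13ko-LV-MEIS1 against HOXB13ko (triangles); dotted lines mark 1.5-fold. Circles and squares extend to -4.15 and -2.80, and triangles stay between -0.22 and 0.34.

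The summed level of the 26 genes was between 894 and 962 CPM in Control, between 479 and 519 CPM in LV-MEIS1, between 624 and 638 CPM in HOXB13ko and between 652 and 692 CPM in HOXB13ko-LV-MEIS1. The mean was highest in Control for 19 of the 26, beside 26.9% of all genes. It was lowest in LV-MEIS1 for 17 and lowest in either group of the pool for 8. The shares of all genes with these lowest groups were not computed, so nothing is read from the counts of 17 and 8. VGF, a secreted neuropeptide precursor, was at 90.8, 107 and 94.8 CPM in Control, at 13.2, 9.37 and 12.5 CPM in LV-MEIS1, at 22.3, 22.3 and 18.9 CPM in HOXB13ko and at 19.1, 24.6 and 22.9 CPM in HOXB13ko-LV-MEIS1. Like SRRM4, it was lowest in LV-MEIS1 and similar in both groups of the pool, and it fell by 3.02 ± 0.12 and fell by 2.18 ± 0.12 against Control. SYP, a synaptic vesicle membrane protein, was at 17, 17 and 14.4 CPM in Control, 1.24, 1.85 and 2.14 CPM in LV-MEIS1 and 4.25, 3.86 and 3.68 CPM in HOXB13ko, and fell by 2.91 ± 0.15 and 1.91 ± 0.15.

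CHGB and SCG3, which encode granins of secretory granules, fell by 3.14 ± 0.18 and 3.41 ± 0.15 in LV-MEIS1 and by 2.14 ± 0.18 and 2.09 ± 0.15 in HOXB13ko. CHRNB2, a nicotinic receptor subunit, was at 12.9, 11.8 and 11.6 CPM in Control and at 0.0553, 0.516 and 0.259 CPM in LV-MEIS1, where the lowest value stands for about 1 read. CPLX2, a regulator of vesicle fusion, was at 8.08, 8.43 and 9.64 CPM in Control and at 0.0553, 0 and 0 CPM in LV-MEIS1, each at or under 3 reads, so its fitted change there depends on the added 0.5. With CPLX2 set to 3 reads in LV-MEIS1 the median of the list was again -1.08. CHRNB2 and CPLX2 were higher in the pool, between 1.25 and 1.40 CPM and between 1.60 and 1.77 CPM in HOXB13ko. The LV-MEIS1 means of CHGB (0.343 CPM), SCG3 (0.468 CPM) and CHRNB2 (0.277 CPM) were also under the added 0.5, which understates their falls.

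In some listed targets LV-MEIS1 was not the lowest group or the pool was above Control. STMN3, a regulator of microtubules, and SNAP25, a core protein of vesicle fusion, were lower in HOXB13ko (6.10 to 6.69 CPM and 0.498 to 0.784 CPM) than in LV-MEIS1 (8.02 to 10.7 CPM and 1.05 to 1.73 CPM), with Control at 32.9 to 36.6 CPM and 3.93 to 5.35 CPM. SYT4, a synaptotagmin, was at 155, 143 and 137 CPM in Control, 75.0, 68.3 and 66.7 CPM in LV-MEIS1, 192, 193 and 194 CPM in HOXB13ko and 241, 250 and 243 CPM in HOXB13ko-LV-MEIS1. It fell by 1.05 ± 0.06 in LV-MEIS1 by the 1.5-fold test and was higher by 0.41 ± 0.06 in HOXB13ko and by 0.34 ± 0.06 with MEIS1 in the pool, by the test against no change. Named after its values were seen, GRIN1, an NMDA receptor subunit, fell by 0.90 ± 0.07 in HOXB13ko by the 1.5-fold test and rose by 0.31 ± 0.07 in LV-MEIS1 by the test against no change.

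MAPK8IP2 and SCAMP5 had the order of SRRM4 in their group means, with Control highest and LV-MEIS1 lowest. For MAPK8IP2 the LV-MEIS1 libraries (92.7 to 101 CPM) overlapped those of HOXB13ko (99.1 to 111 CPM) and HOXB13ko-LV-MEIS1 (99.5 to 109 CPM). MAPK8IP2, a kinase scaffold at 142, 168 and 143 CPM in Control, fell by 0.64 ± 0.07 in LV-MEIS1 and by 0.50 ± 0.07 in HOXB13ko by the test against no change. SCAMP5, also named after its values were seen, fell by 1.68 ± 0.10 in LV-MEIS1 and lies on chromosome 15 (74957219 to 75021495), where 28 of 34 listed neighbours were lower with a median of -0.39. As for SIN3A, the share of all genes that were lower was not computed.

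Promoter windows were given for 18 of the 26 genes (20 windows). The right part of RE1 was present in 6 of the 20 (30%, against 6.03% of all windows), the left part in 3 (15%, against 0.376%), TGACAG in 3 (15%, against 15.8%) and CAATAAA in 1 (5%, against 4%). REST often binds outside such windows, and the list was written from genes known for RE1 elements.

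The genes that host known SRRM4-dependent microexons were described from a list of 13, all of them listed. In the 4 comparisons 0 passed the 1.5-fold test of limma, by adjusted or unadjusted p, and 7, 4, 0 and 6 passed the test against no change, with 0 at an unadjusted p under 0.05 in the pool. These are 53.8%, 30.8%, 0% and 46.2% of the list, beside the shares of all genes given for the REST partners (44.5%, 32.9%, 0.0502% and 34.2%). The list had a median log2 fold change of -0.05 for LV-MEIS1 and of 0.05 for HOXB13ko, each against Control, and values in LV-MEIS1 ranged from -0.51 to 0.68. EIF4G1, a translation initiation scaffold, was at 1103, 1078 and 1014 CPM in Control and at 886, 891 and 954 CPM in LV-MEIS1, a fall by 0.23 ± 0.05. UNC13B, a vesicle priming factor, was at 308, 296 and 282 CPM in Control and at 350, 357 and 372 CPM in LV-MEIS1, a rise by 0.29 ± 0.05, both by the test against no change. Inclusion of the microexons themselves cannot be read from gene totals.

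Of 27 other splicing regulators, 18 were listed. In the 4 comparisons 0 passed the 1.5-fold test of limma (0, 1, 0 and 1 at an unadjusted p under 0.05), and 8, 9, 0 and 6 passed the test against no change, with 2 at an unadjusted p under 0.05 in the pool. The shares of the list were 44.4%, 50%, 0% and 33.3%, beside 44.5%, 32.9%, 0.0502% and 34.2% of all genes. The list had a median log2 fold change of 0.00 for LV-MEIS1 and of 0.01 for HOXB13ko, each against Control. Values ranged from -0.44 to 0.75 in LV-MEIS1 and from -0.96 to 0.63 in HOXB13ko. By the test against no change 5 rose and 3 fell in LV-MEIS1, and 4 rose and 5 fell in HOXB13ko. SRRM2, a large spliceosomal scaffold related in sequence to SRRM3 and SRRM4, was at 1106, 1013 and 1096 CPM in Control and at 837, 1022 and 993 CPM in LV-MEIS1, and passed no test. KHDRBS1 (SAM68) was at 296, 298 and 287 CPM in Control and at 289, 279 and 276 CPM in LV-MEIS1, and passed the test against no change only for the difference of the MEIS1 effects (-0.20 ± 0.06). Named after their values were seen, CELF5, a relative of CELF3, rose by 0.75 ± 0.12 in LV-MEIS1 and fell by 0.33 ± 0.12 in HOXB13ko, and PTBP3, a relative of PTBP1, rose by 0.46 ± 0.07 in LV-MEIS1, each by the test against no change.

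Of 12 neuroendocrine markers, 6 were listed, and SYP, CHGB and SCG3, described above as REST targets, fell by the 1.5-fold test in both comparisons with Control, where 2.24% (LV-MEIS1) and 0.760% (HOXB13ko) of all genes fell. The other 3 did not pass the 1.5-fold test. ENO2, a neuronal enolase, was at 182, 195 and 185 CPM in Control and at 169, 160 and 161 CPM in LV-MEIS1, a fall by 0.20 ± 0.05 by the test against no change. ONECUT2, a transcription factor, was at 58.0, 48.0 and 51.7 CPM in Control and at 46.7, 56.0 and 51.4 CPM in LV-MEIS1, and -0.03 ± 0.10 passed neither test. POU3F2, a neuronal transcription factor named after its values were seen, was between 2.85 and 4.05 CPM in Control and between 5.62 and 8.07 CPM in LV-MEIS1, a rise by 0.92 ± 0.15 by the test against no change. The median of the 6 was -1.55 for LV-MEIS1 and -1.03 for HOXB13ko, each against Control.

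The genes whose pattern was most like that of SRRM4 were sought among 13901 genes by Pearson's r of log2(CPM + 0.5) over the 12 libraries. They were CDH6 (0.991), UNC13A (0.990), NMNAT2 (0.985), MYO1A (0.980) and PDE6B (0.980), and UNC13A is also on the REST target list. CDH6, a cadherin, ran between 45.2 and 55.2 CPM in Control, between 2.42 and 3.48 CPM in LV-MEIS1, between 16.4 and 18.6 CPM in HOXB13ko and between 12.6 and 13.3 CPM in HOXB13ko-LV-MEIS1. NMNAT2, an NAD synthesis enzyme of neurons, was at 41.1 to 45 CPM, 0.592 to 1.30 CPM, 6.34 to 6.96 CPM and 5.42 to 7.41 CPM in the same order. All 5 therefore shared the order of Control, the pool and LV-MEIS1. Once group means were removed, r with SRRM4 was between 0.31 and 0.67, so the likeness rests mostly on the 4 group levels.

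For REST the most alike were CASD1 (0.976), MAP9 (0.974), WDR26 (0.973), RASA1 (0.972) and ZFYVE16 (0.97). Their r with REST once group means were removed was between 0.87 and 0.90, so these genes also followed REST from library to library within groups. Control replicate 2 was lowest of its group and LV-MEIS1 replicate 2 highest of its group for REST and for all 5. This order was not particular to them, as RCOR1, RCOR3, RBFOX2 and PTBP3 had it too. SRRM3, RCOR2 and PTBP1 had the reverse, with Control replicate 2 highest and LV-MEIS1 replicate 2 lowest. The libraries are shared by all these genes, and whether library properties such as fragment length move with them was not tested.

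**Figure D5:**
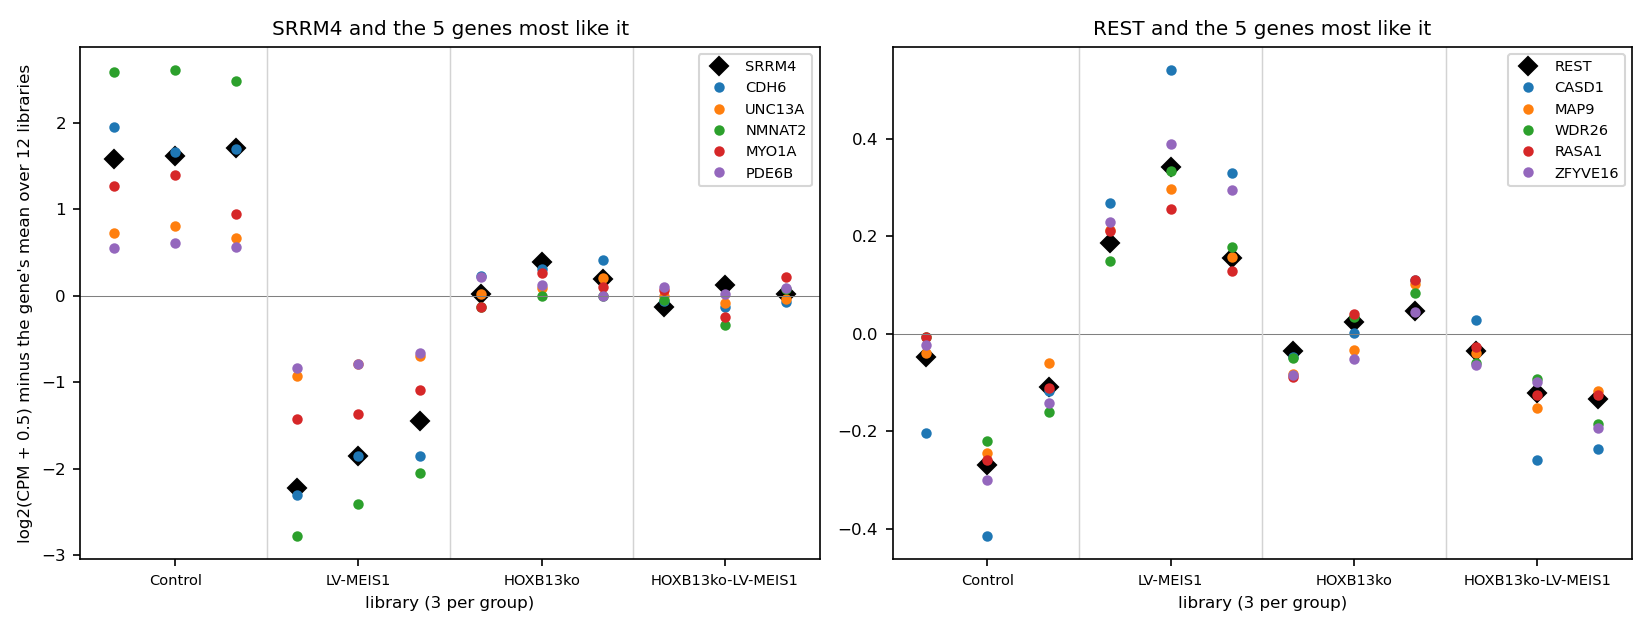
Log2(CPM + 0.5) minus each gene's mean over the 12 libraries (3 libraries per group, separated by vertical lines) for SRRM4 and the 5 genes most like it (left) and for REST and the 5 genes most like it (right); diamonds mark SRRM4 and REST. The genes like SRRM4 separate by group, and those like REST also share ups and downs within Control and LV-MEIS1 over a range of less than 1 log2 unit.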

How the data were processed

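RNA-seq libraries from 12 cultures of CWR22Rv1 derivatives were analysed from the CPM values that the authors deposited. Per the study's methods, single-end reads of 50 bases were trimmed, assigned to Ensembl GRCh38.p12 transcripts with kallisto without use of strand, summed to genes with tximport, filtered for low counts and normalised in edgeR. The submitters' processing notes give Trimmomatic 0.38, kallisto 0.43.1 and edgeR 3.22.2. Ambiguous reads were shared out among transcripts, so overlapping genes and near copies are uncertain. Each file holds 13993 rows by gene symbol, and 42 exact repeats were dropped.

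Depth, estimated from the steps between low CPM values, was between 17200000 and 28700000 reads per library, so 3 reads correspond to between 0.105 and 0.175 CPM. Only between 47.5% and 50.7% of values under 2.5 CPM lay within 0.1 of a whole step, so counts were not recovered. Correlations between replicates ranged from 0.990 to 0.995.

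Values were tested as log2(CPM + 0.5), which understates changes of low genes, in limma 3.58.1 (R 4.3.3) with 1 mean per group over the 12 libraries. The treat method with a fold of 1.5 and a trended prior was the main test, and eBayes against no change an alternative, each with Benjamini-Hochberg adjustment under 0.05 over 13951 genes; the fitting steps were tested on simulated data. Named genes are the members, HOXB13 and MEIS1, from each list the called genes (up to 6 per comparison) and the 2 of highest mean, and the 5 most like SRRM4 and REST among genes whose mean reached 1 CPM. The members and lists were chosen with earlier results of these data known. The values of 1 listed gene are not reported here. Positions and lengths come from GENCODE 44. Alternatives were other pseudocounts, a filter on low values, 3 other scalings (which moved the median of all genes by at most 0.039), a replicate term, a fit of the 6 libraries compared and leaving out each library. Python 3.11.15 with matplotlib 3.10.9 made the figures.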

Additional observations from a re-analysis of the deposited data

Results flagged for a closer look

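The effect of exogenous MEIS1 differed between cells without and with the HOXB13ko label for 14 genes named by the rule, by the 1.5-fold test of the difference itself in limma. The rule named many genes because they were called, so nothing is read from the count of 14. Of all genes, 2.93% passed this test. Of the listed REST targets 12 of 26 passed, and not all of them are named here. For SRRM4 it was -3.48 without the label and -0.20 with it on the log2 scale, a difference of -3.28 ± 0.22. Among REST target genes the difference was -4.13 ± 0.24 for CPLX2, -4.39 ± 0.31 for CHRNB2, -3.35 ± 0.22 for SCG3, -3.06 ± 0.26 for CHGB, -3.08 ± 0.17 for VGF, -2.93 ± 0.21 for SYP, -1.89 ± 0.16 for STMN3 and -1.38 ± 0.08 for SYT4. Among the genes most like SRRM4, which were picked for sharing its pattern, it was -3.37 ± 0.16 for CDH6, -1.39 ± 0.10 for UNC13A, -4.91 ± 0.22 for NMNAT2, -2.44 ± 0.22 for MYO1A and -1.29 ± 0.09 for PDE6B. SCAMP5, named after its values were seen, also passed (-1.78 ± 0.14). SYT4 is the only 1 of these 14 genes whose effect with the label (0.34) passed the test against no change. The value of CPLX2 depends on the added 0.5, since its LV-MEIS1 libraries held at most 3 reads. In LV-MEIS1 the mean CPM of CHRNB2 (0.277), CHGB (0.343) and SCG3 (0.468) also lay under 0.5, so their values are understated. Exogenous MEIS1 was lower in the pool, as given above, and the part of that level in the differences was not tested. Each group is 1 derived line or pool, so differences between lines cannot be told apart from effects of MEIS1 or of the knockout.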

How the results depend on the processing

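As an alternative, eBayes against no change was put in place of the 1.5-fold test. In LV-MEIS1 against Control it called 6 of 10 members, 6 of 19 REST complex partners and 22 of 26 REST targets. It also called 8 of 18 other splicing regulators, 7 of 13 SRRM4 exon hosts and 5 of 6 neuroendocrine markers. In HOXB13ko against Control the counts were 4 partners, 22 targets, 9 other regulators, 4 hosts and 6 markers. For the difference of the MEIS1 effects they were 4 members, 6 partners, 21 targets, 6 other regulators, 6 hosts and 5 markers. With MEIS1 in the pool 1 target was called. In that order of comparisons, the share of all genes called by this test was 44.5%, 32.9%, 34.2% and 0.0502%. The members called in HOXB13ko against Control fell from 2 to 1 with a pseudocount of 1 and with a replicate block, and ranged from 1 to 2 when single libraries were left out, each time through CELF3. The replicate numbers did not pair the samples (2 of 18 same-numbered pairs correlated over 0.1, and 0 of 12 libraries correlated best with its own number), and the block changed no other member count. With single libraries left out, REST targets called ranged from 14 to 15, from 8 to 10 and, for the difference, from 12 to 13, and neuroendocrine markers for the difference from 3 to 4. Of 790 member fold changes under alternatives, 789 moved by less than 1 SD between replicates, 1 moved further and 0 called values changed sign. Depth limits values near 0.105 to 0.175 CPM, which touches CPLX2 and CHRNB2.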
